A study of Homo sapiens with 6 samples.

Results

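G protein-coupled receptor signaling genes were examined by RNA-seq in SNU668 cells, a human line derived from a signet-ring carcinoma of the stomach and kept in culture. The genes were the protein-coding entries of the deposited table whose Gene Ontology annotation names the G protein-coupled receptor signaling pathway. Of 61 such entries, 6 were set aside: the chemokine genes CCL2 and CXCL8 by name, and VAV3, RHOB, ADGRB1 and ADGRG1 for a cell adhesion annotation. This left 55 genes of 2128 in the table, in 5 classes: 24 receptors, 5 ligands, 3 G protein subunits, 2 RGS genes and 21 other genes, mostly effectors, exchange factors and kinases. The rule reads annotation and no measured value, though it was set with earlier results of these data known.

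In all, 3 libraries came from shGPER cells, labelled as a knockdown of GPER with a short hairpin RNA, and 3 from shControl cells, whose genotype label is wild type. Not given in the sources used here are whether the control cells carried a hairpin, how many hairpins were used, and whether the libraries come from separate cultures. P-values therefore measure only the spread between these libraries, which may be technical.

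A G protein-coupled receptor crosses the membrane and, once bound by its ligand, makes a heterotrimeric G protein exchange GDP for GTP on its alpha subunit, which then parts from the beta and gamma subunits. Alpha subunits of the Gs type stimulate adenylyl cyclase and those of the Gi type inhibit it, those of the Gq type activate phospholipase C beta, and GNA12 and GNA13 act on exchange factors of small GTPases. RGS proteins speed up GTP hydrolysis and so end the signal, and receptor kinases mark active receptors for arrestin binding. GPER1, the target of the hairpin, is a receptor of this family that responds to estrogen.

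Values are in TPM, a gene's length-corrected share of the transcripts in its library, scaled so that every library has the same total. The listed genes summed to 46584 to 49148 TPM in the shGPER libraries and to 61181 to 64236 TPM in the shControl libraries, 4.66 to 6.42% of that total, and read depth is unknown. The 55 genes summed to 464 to 547 TPM in shGPER and to 332 to 337 TPM in shControl libraries. Such a sum is weighted to abundant genes and does not describe the set as a whole. GNAI2, ARHGEF1, GLP2R and PALM, the 4 genes over 40 TPM in a library, were all higher in shGPER. The table was already rich in genes that differ: 98.4% of its 1651 tested genes passed the test used below (47.8% higher and 50.6% lower in shGPER cells), so a call by itself sets no gene apart. Of 11 gastric epithelial markers only CDH1 and TFF1 were in the table, summing to 0.68 to 3.02 TPM in shGPER and 5.08 to 6.67 TPM in shControl libraries, and the other 9 were not analysed here. Markers of other cell types also moved with the groups. The 4 listed of 5 neuroendocrine markers (CHGB, SYP, SCG3 and SCG2) summed to 64.2 to 65.3 TPM in shGPER and 6.82 to 7.41 TPM in shControl libraries. The 4 listed of 5 fibroblast markers (COL1A1, COL1A2, LUM and DCN) summed to 31.9 to 33.2 and 7.02 to 9.91 TPM in shGPER and shControl libraries, and 2 of 3 endothelial markers (CDH5 and ERG) to 7.52 to 8.71 and 2.09 to 2.52 TPM. None of these listed markers was at 0 in a library, but CDH1 was under 1 TPM in all 6, and of the fibroblast markers LUM and DCN were lower in shGPER, so that the higher sum was mostly that of COL1A1. No leukocyte marker was in the table, and the part of such cells or states in the results below was not tested. In a bulk sample, fewer cells of a kind and less RNA per cell cannot be told apart.

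Promoter windows of 4 genes are shown as a guide to the results that follow: GPER1, the hairpin's target and the largest fall, RGS19 and GPR183, the RGS gene and the receptor with the largest rise, and CGA, a ligand gene known as a target of cyclic AMP signaling. Each runs from 250 bases before to 50 bases after a transcript start (RefSeq, GRCh38.p14, 5′ to 3′ on the gene's strand). Capitals mark matches to the cyclic AMP response element TGACGTCA or to the TATA box TATAAA on either strand.
GPER1 (chr7:1086868-1087167, plus strand): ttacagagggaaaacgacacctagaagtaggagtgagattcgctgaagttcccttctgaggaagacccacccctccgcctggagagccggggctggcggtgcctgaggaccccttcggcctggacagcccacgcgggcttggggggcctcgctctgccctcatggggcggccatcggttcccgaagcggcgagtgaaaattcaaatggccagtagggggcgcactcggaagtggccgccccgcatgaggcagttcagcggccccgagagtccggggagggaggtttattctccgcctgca
RGS19 (chr20:64079915-64080214, minus strand): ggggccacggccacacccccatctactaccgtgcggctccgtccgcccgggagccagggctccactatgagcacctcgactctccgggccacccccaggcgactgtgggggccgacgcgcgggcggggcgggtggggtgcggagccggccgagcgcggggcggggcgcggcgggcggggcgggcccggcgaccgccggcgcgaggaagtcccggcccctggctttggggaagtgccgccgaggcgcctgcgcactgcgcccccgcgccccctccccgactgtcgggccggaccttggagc
GPR183 (chr13:99307350-99307649, minus strand): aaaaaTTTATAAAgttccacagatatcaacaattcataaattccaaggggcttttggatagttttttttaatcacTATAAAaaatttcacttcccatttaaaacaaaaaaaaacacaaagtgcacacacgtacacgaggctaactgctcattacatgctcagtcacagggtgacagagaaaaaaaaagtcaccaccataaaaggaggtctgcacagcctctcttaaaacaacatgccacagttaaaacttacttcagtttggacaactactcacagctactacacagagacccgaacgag
CGA (chr6:87095057-87095356, minus strand): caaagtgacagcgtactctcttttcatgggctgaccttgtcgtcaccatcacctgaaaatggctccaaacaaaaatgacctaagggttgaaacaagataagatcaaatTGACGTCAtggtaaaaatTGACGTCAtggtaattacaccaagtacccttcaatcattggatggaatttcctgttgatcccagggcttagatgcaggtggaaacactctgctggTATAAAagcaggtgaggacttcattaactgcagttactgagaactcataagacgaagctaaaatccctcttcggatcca

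The windows differed in base composition, at 64.7% GC for GPER1, 80.3% for RGS19, 36.7% for GPR183 and 42.3% for CGA, against a median of 58.7% over all 35116 windows. GPER1 and RGS19 each have a further listed window, not shown. Of the 45 genes with a listed window, CGA alone held TGACGTCA, in 2 copies in 1 window. That is 1.30% of the 77 windows of these genes, against 1.85% of all windows. TATAAA, or TTTATA on the other strand, was in 1 window each of ARHGEF12, CGA, GPER1, GPR183 and LPAR1, 6.49% of the 77 windows, against 11.5% of all windows; in GPR183 a match on each strand overlaps, and in GPER1 it lies in the window not shown. The first letters of the response element, TGACG, were in 16 of the 77 windows (20.8%), against 24.6% of all windows. CATTCC, the core bound by TEAD factors of the Hippo pathway, was in 7 of the 77 windows (9.09%; EDN2, GIPR, GLP2R, KCNK2, NGEF, NPR3 and PLEKHG2), against 14.0% of all windows. A match describes the letters of a window and is not a site shown to be bound.

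The targeted gene was lower in every shGPER library. GPER1 (ENSG00000164850, chromosome 7, 1082208 to 1093815, GRCh38) had 1.83, 2.41 and 2.47 TPM in the shGPER libraries and 11.04, 11.00 and 10.41 TPM in the shControl libraries. The groups did not overlap, and 20.7% of the control mean was left (log2 fold change -1.87, SE 0.11; limma, adjusted p = 1.14e-06; two-sided exact permutation test p = 0.1, the smallest that 3 against 3 libraries allow). Fold changes here and below are on the log2(TPM + 1) scale, shGPER minus shControl, which understates changes of genes of low TPM.

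Of the 24 receptors, 12 were tested, having at least 1 TPM in 3 or more libraries. GPER1 and 6 others fell and 5 rose. Their median log2 fold change, with the targeted GPER1 included, was -0.62, against -0.49 over all tested genes. Their share of rises, 41.7%, was near the 47.8% of the table. Receptors that couple to Gi stood on both sides, as did those that couple to Gs.

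**Figure D1:**
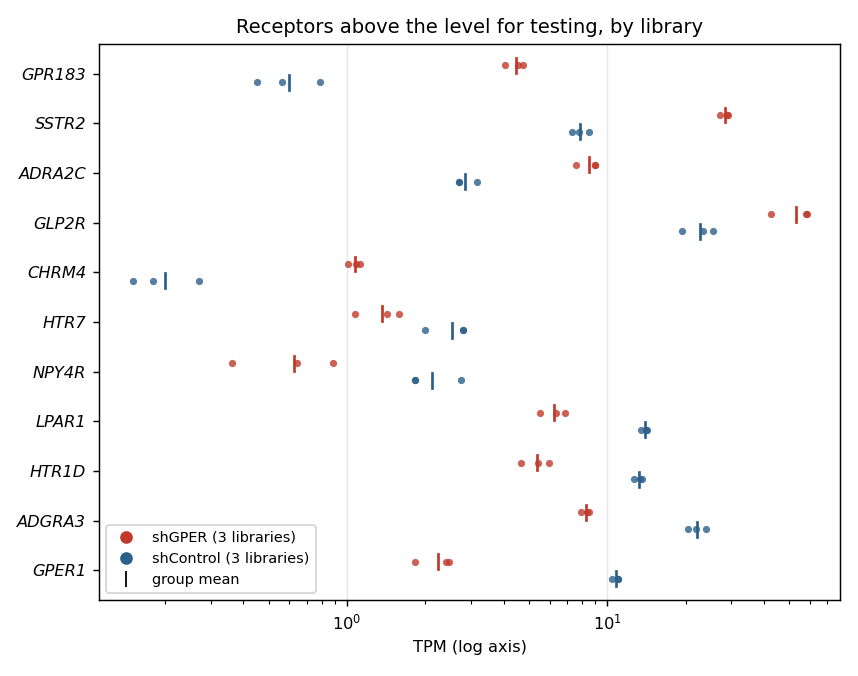
TPM of 11 tested receptors on a log axis, each point 1 library and each bar a group mean, with shGPER above shControl in each row. Receptors are ordered by log2 fold change from GPR183 at 1.77 to GPER1 at -1.87, and the groups do not overlap for any of them. Over all 2128 listed genes 52.8% lay wholly higher and 42.6% wholly lower in shGPER.

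Among receptors for peptides, SSTR2, the somatostatin receptor that signals through Gi, had 27.21, 29.22 and 28.89 TPM in shGPER libraries and 7.81, 7.32 and 8.51 TPM in shControl libraries. All shGPER libraries were well above all controls, by a ratio of means of 3.61 (log2 fold change 1.73, SE 0.08; limma, adjusted p = 3.63e-07). GLP2R is the receptor of glucagon-like peptide 2, a gut hormone that promotes growth of the intestinal lining. In shGPER libraries it was the most abundant of the 24 receptors, but ADGRA3 was higher in shControl libraries 2 and 3 (23.88 and 20.36 TPM). GLP2R had 42.60, 58.12 and 58.42 TPM in shGPER libraries, against 25.39, 23.38 and 19.29 TPM in shControl libraries (log2 fold change 1.18, SE 0.14; limma, adjusted p = 5.54e-05). The shGPER libraries were the more spread of the groups, yet the lowest of them exceeded every control. NPY4R, the receptor of pancreatic polypeptide, went the other way, with 0.36, 0.64 and 0.88 TPM in shGPER and 1.82, 1.82 and 2.73 TPM in shControl libraries (log2 fold change -0.94; limma, adjusted p = 0.00058). This gene is uncertain, because 93.7% of its 31-base words also occur in NPY4R2, a near-identical copy, and it passed the filter through the control libraries alone.

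Receptors for amines were divided. ADRA2C, the alpha-2C adrenoceptor, had 7.61, 8.97 and 8.96 TPM in shGPER libraries and 2.69, 3.15 and 2.69 TPM in shControl libraries, a ratio of means of 2.99 (log2 fold change 1.31, SE 0.11; limma, adjusted p = 6.20e-06). CHRM4, the M4 muscarinic acetylcholine receptor, had 1.12, 1.08 and 1.01 TPM in shGPER, against 0.15, 0.18 and 0.27 TPM in shControl libraries (log2 fold change 0.79). It reached the level for testing only in shGPER libraries, which left it no other direction to be called in. HTR1D, a serotonin receptor that inhibits adenylyl cyclase, had 4.67, 5.42 and 5.96 TPM in shGPER and 13.34, 12.69 and 13.61 TPM in shControl libraries. It fell to a ratio of 0.405 of the control mean, with no overlap (log2 fold change -1.17, SE 0.10; limma, adjusted p = 7.52e-06). HTR7, a serotonin receptor that stimulates adenylyl cyclase, had 1.07, 1.59 and 1.42 TPM in shGPER and 2.00, 2.78 and 2.80 TPM in shControl libraries (log2 fold change -0.58; limma, adjusted p = 0.00386).

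The remaining tested receptors bind lipids or have no settled ligand. GPR183, an oxysterol receptor that guides the migration of lymphocytes, had 4.55, 4.75 and 4.05 TPM in shGPER libraries and 0.45, 0.79 and 0.56 TPM in shControl libraries. This was the largest rise among tested receptors (ratio of means 7.42, log2 fold change 1.77, SE 0.12; limma, adjusted p = 2.21e-06), in a gene that passed the filter through shGPER libraries alone. LPAR1, a receptor of lysophosphatidic acid, had 6.33, 6.85 and 5.51 TPM in shGPER libraries, against 14.21, 14.03 and 13.47 TPM in shControl libraries (log2 fold change -1.05, SE 0.09; limma, adjusted p = 9.92e-06). ADGRA3, an adhesion-class receptor, had 8.33, 7.94 and 8.52 TPM in shGPER and 21.93, 23.88 and 20.36 TPM in shControl libraries. On the log2(TPM + 1) scale it had the largest fall after GPER1 among tested receptors, though the ratio of means was lower for NPY4R (0.295) than for ADGRA3 (0.375). Its shGPER libraries lay within a narrow range (log2 fold change -1.31, SE 0.08; limma, adjusted p = 1.46e-06).

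The other 12 receptors were below the level for testing, at no more than 1.19 TPM in any shGPER library and 0.34 TPM in any shControl library. In 11 of the 12 every shGPER library exceeded every shControl library, and in none was the reverse seen. Over the 477 genes of the table left out of the test, 71.7% lay wholly higher and 16.6% wholly lower in shGPER cells, and over all 2128 listed genes 52.8% and 42.6%. Apart from NPR3, these 12 receptors had a transcript GC content above the table's median of 52.5%. Of all tested genes above that median 82.9% rose, as described below, and the part of GC content in the low receptors was not tested. ADRA1D, an alpha-1 adrenoceptor, had 1.08, 1.19 and 0.63 TPM in shGPER libraries, against 0.19, 0.10 and 0.07 TPM in shControl libraries. TACR2, a tachykinin receptor, had 0.63, 0.71 and 1.17 TPM in shGPER and 0.16 TPM in each shControl library. For both, the controls were close together and the shGPER libraries spread more widely. TBXA2R, the thromboxane receptor, had 0.72, 0.92 and 0.66 TPM in shGPER and 0.17, 0.34 and 0.19 TPM in shControl libraries. GIPR, the receptor of the gut hormone GIP, had 0.61, 0.73 and 0.61 TPM in shGPER and 0.09, 0.06 and 0.04 TPM in shControl libraries. These 4 receptors did not overlap between the groups, but at such levels no fold change is given.

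PTGER1, NPR3, VIPR2, GRM2, HRH3, NTSR1 and ADRA2B were also higher in every shGPER library than in every control, all at or below 0.50 TPM. They are receptors of prostaglandin E2, natriuretic peptides, vasoactive intestinal peptide, glutamate, histamine, neurotensin and adrenaline. NPR3 is in the set by its annotation, and whether it is itself a G protein-coupled receptor was not examined. VIPR2 shares 38.7% of its exonic bases with the antisense-strand gene LINC00689, and the use of strand in counting was not given in the sources used here. GRM4, a glutamate receptor, overlapped between the groups, with 0.08, 0.13 and 0.46 TPM in shGPER and 0, 0.08 and 0.03 TPM in shControl libraries. HRH3, ADRA2B and GRM4 were listed at 0 in at least 1 shControl library.

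**Figure D2:**
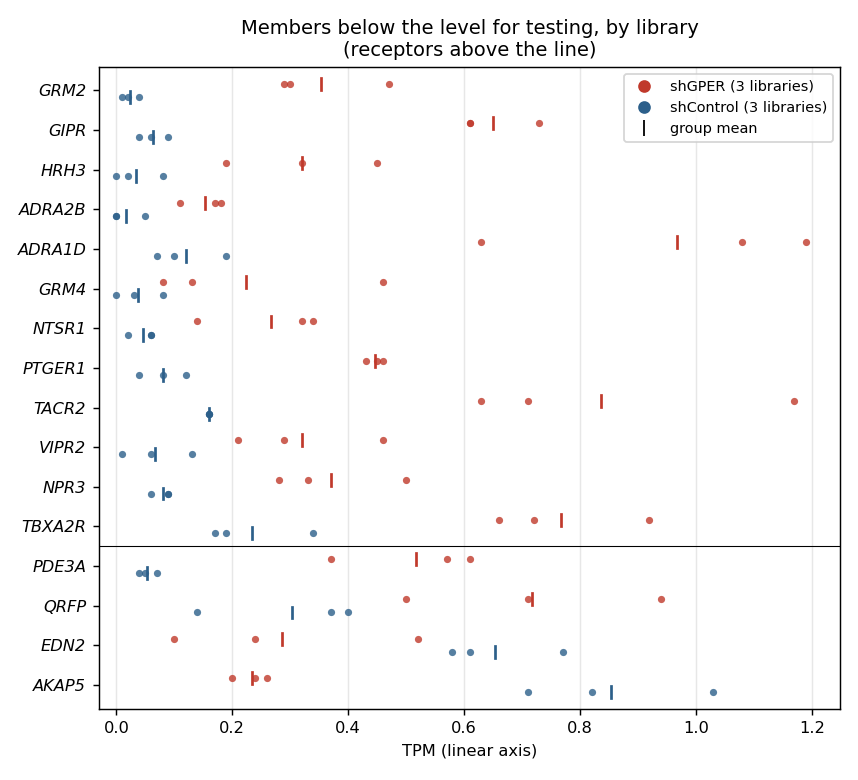
TPM of 16 genes below the level for testing on a linear axis, each point 1 library and each bar a group mean, with shGPER above shControl in each row. Receptors fill the upper 12 rows, where GRM4 alone overlaps between the groups, and EDN2 and AKAP5 in the lower rows are the 2 genes lower in shGPER.

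Ligand genes were expressed at low levels in both groups. All 3 tested ligands rose, against 47.8% of the table, but CGA and RLN2 were under 1 TPM in every control and could pass the filter in no other direction. CGA, the alpha subunit shared by the glycoprotein hormones, had 1.45, 1.88 and 1.73 TPM in shGPER and 0.44, 0.11 and 0.34 TPM in shControl libraries (log2 fold change 1.06, SE 0.13; limma, adjusted p = 7.25e-05). Its promoter window holds the 2 matches to TGACGTCA shown above, and a part of these in the rise was not tested. RLN2, the hormone relaxin, had 1.40, 1.81 and 1.04 TPM in shGPER and 0.31, 0.21 and 0.53 TPM in shControl libraries (log2 fold change 0.83), and 19.9% of its 31-base words also occur in its paralog RLN1. ADM2, a peptide of the calcitonin family also called intermedin, had 2.16, 2.38 and 2.65 TPM in shGPER and 0.98, 1.13 and 0.77 TPM in shControl libraries (log2 fold change 0.79, SE 0.12; limma, adjusted p = 0.000204). For each of these 3 the shGPER libraries stood clear of the controls. Below the level for testing, QRFP, an RFamide peptide, had 0.50, 0.94 and 0.71 TPM in shGPER and 0.40, 0.14 and 0.37 TPM in shControl libraries. EDN2, the peptide endothelin 2, had 0.10, 0.52 and 0.24 TPM in shGPER and 0.61, 0.58 and 0.77 TPM in shControl libraries, and was the sole ligand lower in shGPER.

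The 3 G protein subunit genes did not move as one. GNAI2, an alpha subunit of the Gi type, had 92.31, 105.02 and 108.63 TPM in shGPER libraries and 44.11, 47.42 and 44.33 TPM in shControl libraries. It had the highest mean of the 55 genes in shGPER cells, and rose to 2.25 times the control mean (log2 fold change 1.15, SE 0.07; limma, adjusted p = 1.59e-06). GNAL, an alpha subunit of the Gs type known from olfactory neurons and the striatum, had 1.69, 1.67 and 1.79 TPM in shGPER and 3.04, 3.04 and 4.16 TPM in shControl libraries (log2 fold change -0.69, SE 0.13; limma, adjusted p = 0.000753). MPPE1, on the other strand, shares 26.8% of the exonic bases of GNAL. DNAJC25-GNG10, a readthrough of a chaperone gene into the gamma subunit gene GNG10, had 3.23, 2.77 and 2.27 TPM in shGPER and 5.24, 4.58 and 5.34 TPM in shControl libraries (log2 fold change -0.69; limma, adjusted p = 0.000695). Since all but a few of its 31-base words (96.2%) occur in other genes, its reads cannot be told from those of GNG10 and DNAJC25.

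Both RGS genes rose. RGS19, which acts on Gi-type alpha subunits, had 19.97, 21.50 and 24.91 TPM in shGPER libraries and 2.69, 3.26 and 2.27 TPM in shControl libraries. All shGPER libraries were far above all controls, with a ratio of means of 8.08 (log2 fold change 2.63, SE 0.13; limma, adjusted p = 4.39e-07). On the log2(TPM + 1) scale no other of the 38 tested genes had a larger change, but PLCB2, under 1 TPM in every control, had a larger ratio of means (11.05), and without the GC trend GPR183 was higher (2.69, against 1.54 for RGS19). RGS16, also a regulator of Gi- and Gq-type subunits, had 1.50, 1.48 and 1.70 TPM in shGPER and 0.60, 0.48 and 0.67 TPM in shControl libraries (log2 fold change 0.69, SE 0.10; limma, adjusted p = 0.000228). It was under 1 TPM in every control, and its call was lost with quantile normalization (log2 fold change 0.23, adjusted p = 0.0622).

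Of the 21 other genes, 18 were tested; 12 rose and 6 fell, against 47.8% and 50.6% over the table, and their median log2 fold change was 1.01, against -0.49. Without the trend with GC content described below, 5 were called higher and 2 lower, 11 lost their call, and the median was 0.03. Of the effectors, ADCY9, PDE2A and PLCB2 rose and KCNK2 fell. ADCY9, an adenylyl cyclase, which makes cyclic AMP, had 14.79, 17.80 and 17.04 TPM in shGPER and 6.46, 5.81 and 5.96 TPM in shControl libraries (log2 fold change 1.31, SE 0.09; limma, adjusted p = 2.96e-06). PDE2A, a phosphodiesterase that breaks down cyclic AMP and cyclic GMP, had 12.23, 8.43 and 7.42 TPM in shGPER, against 3.79, 2.32 and 2.27 TPM in shControl libraries (log2 fold change 1.45, SE 0.21; limma, adjusted p = 0.000169). Thus the RNA of an enzyme that makes cyclic AMP and that of one that removes it were both higher. Protein and cyclic AMP were not measured here. PLCB2, a phospholipase C beta, had 3.54, 1.71 and 1.60 TPM in shGPER and 0.08, 0.36 and 0.18 TPM in shControl libraries (log2 fold change 1.40, SE 0.22; limma, adjusted p = 0.000269). Its first shGPER library was well above the other two, and the controls were all under 1 TPM. KCNK2, a potassium channel that G protein pathways regulate, had 2.23, 2.98 and 1.54 TPM in shGPER and 5.76, 5.66 and 4.71 TPM in shControl libraries (log2 fold change -0.99). Below the level for testing, the phosphodiesterase PDE3A had 0.37 to 0.61 TPM in shGPER and 0.04 to 0.07 TPM in shControl libraries. AKAP5, which anchors protein kinase A, had 0.20, 0.26 and 0.24 TPM in shGPER and 0.71, 0.82 and 1.03 TPM in shControl libraries.

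**Figure D3:**
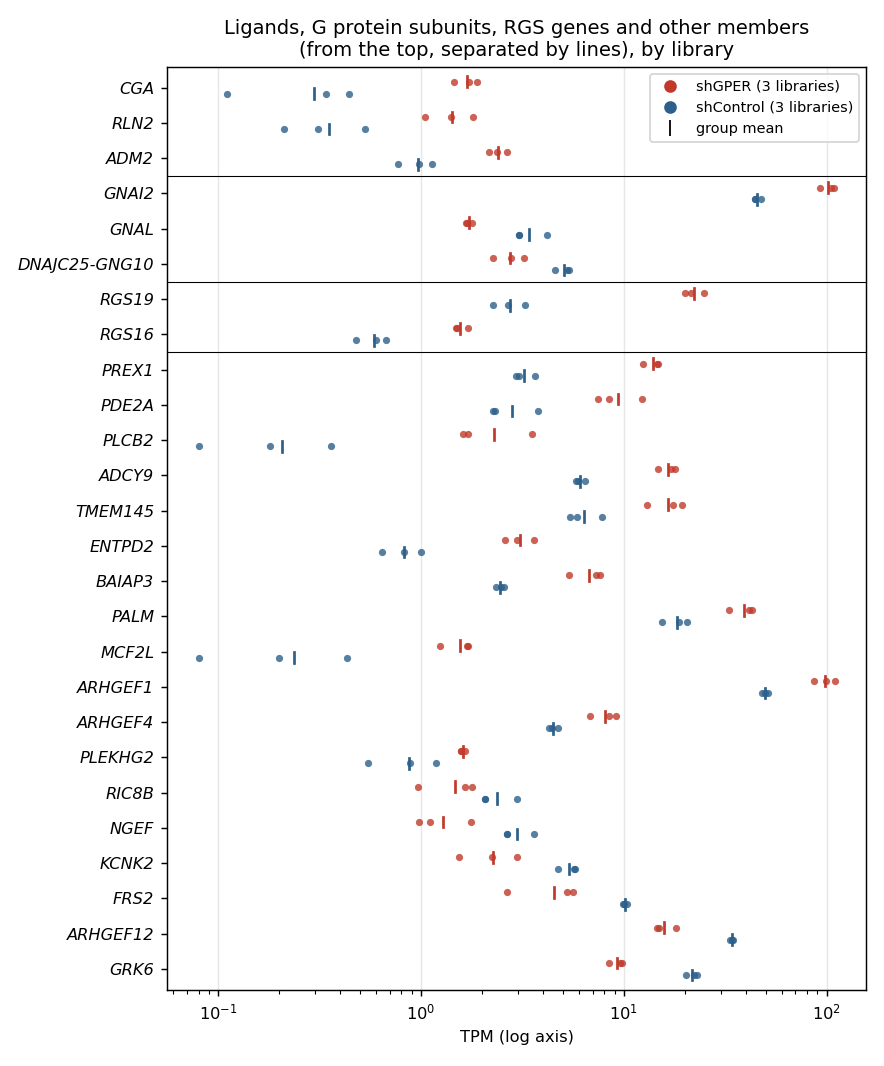
TPM of the 26 tested ligands, G protein subunits, RGS genes and other genes on a log axis, each point 1 library and each bar a group mean, with shGPER above shControl in each row. Lines separate the classes; within a class genes run from the largest rise to the largest fall, and no gene's groups overlap. Over all 2128 listed genes 52.8% lay wholly higher and 42.6% wholly lower in shGPER.

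GRK6, a kinase that phosphorylates active receptors, fell. It had 8.41, 9.83 and 9.56 TPM in shGPER libraries and 20.16, 22.26 and 22.88 TPM in shControl libraries (log2 fold change -1.15, SE 0.09; limma, adjusted p = 3.93e-06). Opposite-strand F12 shares 9.16% of its exonic bases. RIC8B, a chaperone and exchange factor of Gs-type alpha subunits, had 1.64, 0.97 and 1.79 TPM in shGPER and 2.07, 2.98 and 2.07 TPM in shControl libraries. This was the smallest change of the 38 (log2 fold change -0.46, SE 0.17; limma, adjusted p = 0.0289). The call was lost without shGPER library 2 (-0.30, adjusted p = 0.0976), without shControl library 2 (-0.33, adjusted p = 0.102) and with median centring (-0.30, adjusted p = 0.124), and with the replicate number as a block (adjusted p = 0.0625).

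Exchange factors of small GTPases, which link G proteins to the cytoskeleton, differed in direction. PREX1, a Rac exchange factor activated by beta and gamma subunits, had 12.45, 14.48 and 14.75 TPM in shGPER and 2.95, 3.66 and 3.04 TPM in shControl libraries (ratio of means 4.32, log2 fold change 1.82, SE 0.11; limma, adjusted p = 1.18e-06). ARHGEF1 and ARHGEF12 both carry an RGS domain and act downstream of GNA12 and GNA13, yet moved in opposite directions. ARHGEF1 had 86.28, 98.70 and 109.40 TPM in shGPER and 49.39, 48.11 and 51.13 TPM in shControl libraries (log2 fold change 0.97, SE 0.09; limma, adjusted p = 9.54e-06). ARHGEF12 had 14.94, 18.02 and 14.56 TPM in shGPER, against 34.60, 33.30 and 34.28 TPM in shControl libraries (log2 fold change -1.06, SE 0.09; limma, adjusted p = 6.03e-06). Neither opposite call held without the GC trend, as given below. MCF2L, an exchange factor of small GTPases, had 1.69, 1.24 and 1.71 TPM in shGPER and 0.08, 0.43 and 0.20 TPM in shControl libraries, so that it passed the filter in shGPER alone. NGEF, the exchange factor ephexin, had 0.98, 1.77 and 1.11 TPM in shGPER and 3.62, 2.64 and 2.66 TPM in shControl libraries (log2 fold change -0.80; limma, adjusted p = 0.00134). ARHGEF4 and PLEKHG2 rose by smaller amounts, with log2 fold changes of 0.73 and 0.49; PLEKHG2 lost its call with quantile normalization (0.01, adjusted p = 0.94).

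The last 5 genes carry the annotation but have varied roles. PALM, the membrane protein paralemmin, had 32.94, 41.50 and 42.95 TPM in shGPER and 18.69, 15.39 and 20.42 TPM in shControl libraries (log2 fold change 1.07). TMEM145, a transmembrane protein, had 12.95, 17.36 and 19.38 TPM in shGPER and 5.89, 7.81 and 5.40 TPM in shControl libraries (log2 fold change 1.25). BAIAP3, which acts in dense-core vesicle trafficking, had 5.36, 7.27 and 7.63 TPM in shGPER and 2.34, 2.48 and 2.55 TPM in shControl libraries (log2 fold change 1.15). In these 3 rising genes shGPER library 1 was the lowest of its group. The same held for 23 of the 37 genes that lay wholly higher in shGPER and 9 of the 17 wholly lower. The share over all listed genes was not computed, so these counts do not set the genes apart. ENTPD2, an ectonucleotidase that removes the receptor ligand ATP, had 2.59, 2.98 and 3.60 TPM in shGPER and 0.82, 1.00 and 0.64 TPM in shControl libraries (log2 fold change 1.15). FRS2, an adaptor of fibroblast growth factor receptors, had 5.59, 5.25 and 2.66 TPM in shGPER and 10.02, 10.40 and 9.95 TPM in shControl libraries (log2 fold change -1.06, SE 0.21; limma, adjusted p = 0.00113). Library 3 of the shGPER group was well below the other two.

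In total 23 of the 38 tested genes rose and 15 fell, against 47.8% and 50.6% over the table. The 15 include GPER1, the target of the hairpin. The median log2 fold change was 0.79, against -0.49 over all tested genes, and the median size of the change was 1.06, against 1.05. A call fixed by the filter applied to 8 of the 38, of which 7 rose. The genes were also richer in GC than the table, with a median transcript GC content of 57.9% against 52.5%, and direction in this table went with GC content. Of the 23 tested genes above the table's median, 19 rose, and of the 15 at or below it, 4 rose. The filter fixed the direction of GPR183, CGA and RLN2 among those 4, and of CHRM4, RGS16, MCF2L and PLCB2 among the 19. The shares that rose, 82.6 and 26.7%, lay close to those over all tested genes, 82.9 and 17.9%. Across the 38 genes the rank correlation of GC content with log2 fold change was 0.30, against 0.59 across 1626 genes; all points share the same 6 libraries, and genes are not independent replicates.

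**Figure D4:**
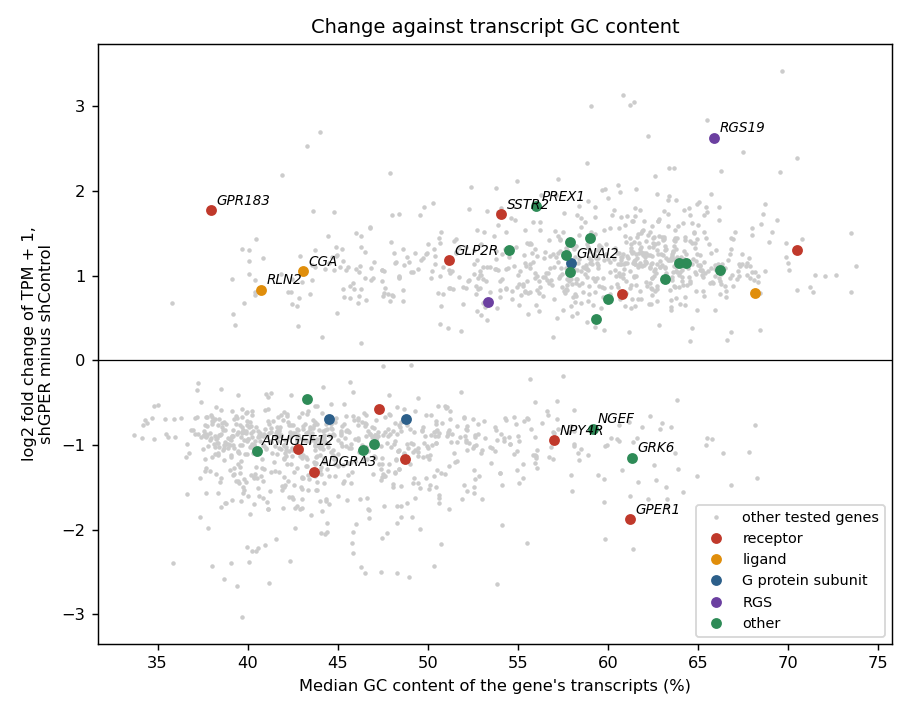
Log2 fold change of TPM + 1 (shGPER minus shControl) against the median GC content of a gene's transcripts, with 37 tested genes coloured by class and the rest of the table in grey. GPR183, CGA and RLN2 rose at low GC content, and GPER1, GRK6, NGEF and NPY4R fell at high GC content, against the slope of the table. GPR183, CGA and RLN2 passed the filter through shGPER libraries alone, and NPY4R through shControl libraries alone.

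When the trend of each library with GC content was removed, 20 of the 38 genes kept their call and direction, 17 lost their call and 1 turned. Of the 38 genes 13 were then called higher and 8 lower, and of all tested genes 31.5% and 31.1%. Genes that stood against the trend had larger changes without it, which the subtraction itself brings about. GPR183 had a log2 fold change of 2.69, CGA of 1.90 and RLN2 of 1.74. GPER1 stood at -2.81, GRK6 at -2.09, NGEF at -1.60 and NPY4R at -1.54. The filter had fixed the direction of the call as deposited for GPR183, CGA, RLN2 and NPY4R. RGS19 (1.54), SSTR2 (1.47), PREX1 (1.32), GLP2R (1.29), ADCY9 (0.99), PLCB2 (0.71), PDE2A (0.66), TMEM145 (0.58), RGS16 (0.52) and GNAI2 (0.46) stayed higher. HTR1D (-0.77) and ADGRA3 (-0.50) stayed lower. Among receptors, ADRA2C (0.19, adjusted p = 0.0907), CHRM4 (-0.12, adjusted p = 0.373), LPAR1 (-0.19, adjusted p = 0.0689) and HTR7 (-0.02, adjusted p = 0.892) lost their call (limma). Of the other classes, GNAL, DNAJC25-GNG10, ENTPD2, BAIAP3, PALM, MCF2L, ARHGEF1, ARHGEF4, ARHGEF12, PLEKHG2, RIC8B, KCNK2 and FRS2 lost theirs. ADM2 turned, being called lower (-0.32; limma, adjusted p = 0.0291). The trend was fitted to a table in which 98.4% of tested genes differed between the groups, so its removal can take out a difference between the groups as well, and a lost call is no evidence that a gene stayed at one level.

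**Figure D5:**
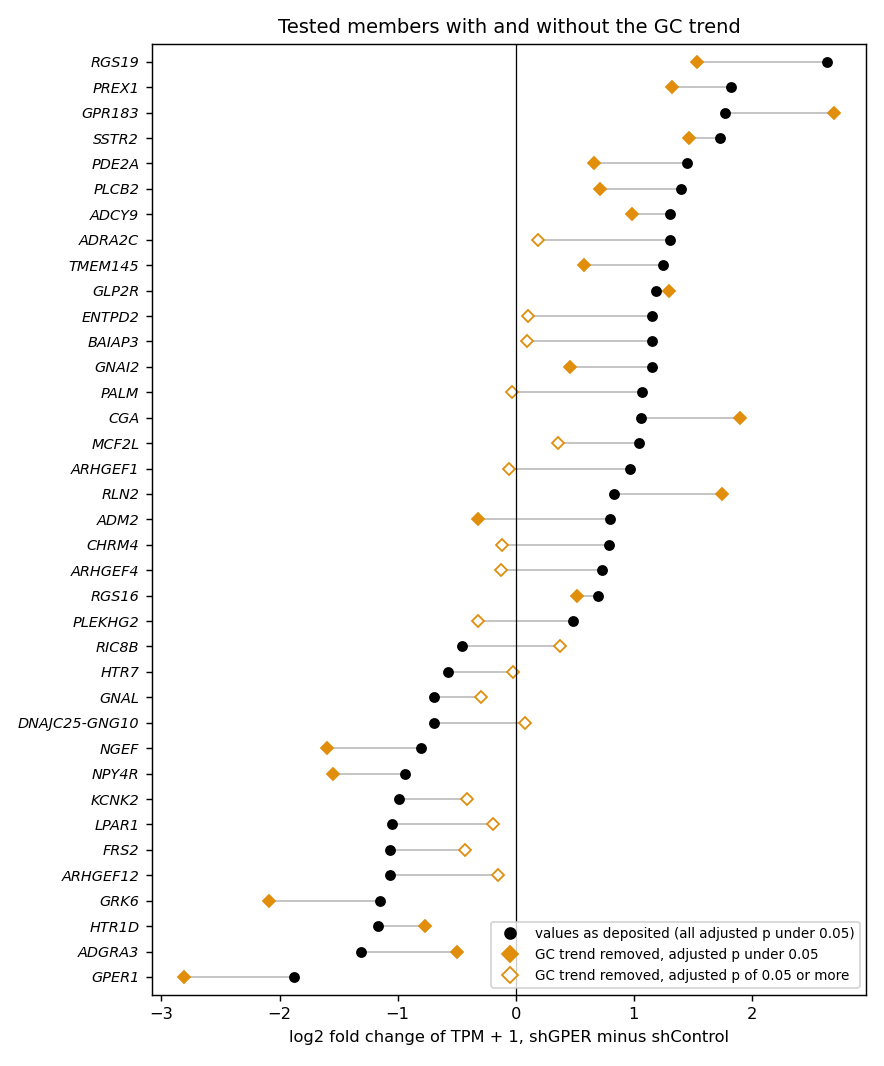
Log2 fold change of TPM + 1 (shGPER minus shControl) of 37 tested genes from the values as deposited (circles) and after removal of each library's GC trend (diamonds, open where the adjusted p was 0.05 or more). Genes that kept call and direction include RGS19 at 2.63 and 1.54 and GPER1 at -1.87 and -2.81.

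A list of 193 genes of G protein signaling, from adenylyl cyclases to cyclic AMP targets, gave the neighbours of these genes in the pathway. The table held 32 of them, of which 15 are among the 55 genes; of the other 17, 16 were tested, and 11 rose and 5 fell, against 47.8% and 50.6% over the table. Without the GC trend 4 of the 16 were higher and 3 lower, against 31.5% and 31.1% of all tested genes. EGFR, the growth factor receptor that GPER1 is known to transactivate, had 12.82, 14.97 and 13.05 TPM in shGPER and 38.42, 39.33 and 40.30 TPM in shControl libraries, and fell also without the trend (log2 fold changes -1.47 and -1.74; limma, adjusted p = 6.03e-07 and 3.64e-07). ITPR1, the calcium channel opened by inositol trisphosphate, had 3.26, 3.88 and 3.11 TPM in shGPER and 11.22, 9.45 and 9.23 TPM in shControl libraries (log2 fold change -1.31, and -0.63 without the trend). ARRDC4, an arrestin-related protein, had 3.58, 3.37 and 3.60 TPM in shGPER, against 10.41, 9.85 and 11.46 TPM in shControl libraries (log2 fold change -1.36, and -0.53 without the trend). All 3 were lower in every shGPER library than in every control.

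The arrestin-related ARRDC2, at 30.93, 34.73 and 38.49 TPM in shGPER and 14.87, 15.65 and 15.08 TPM in shControl libraries, rose (log2 fold change 1.14). GPSM1, a modulator of Gi-type subunits, and AXIN1, a Wnt pathway scaffold with an RGS domain, rose as well, with log2 fold changes of 1.02 and 1.22. These 3 lost their call without the trend, at 0.07, -0.08 and 0.19. All 6 tested cyclic AMP and CREB targets outside the 55 genes were higher, with log2 fold changes of 3.42 for VGF, 2.05 for NR4A2, 1.65 for NR4A1, 1.45 for PER1, 1.32 for FOSB and 1.04 for FOS. Since 98.4% of the table was called in one direction or the other, 47.8% of it higher, the calls by themselves set none of the 6 apart. FOSB was under 1 TPM in every control, which left it no lower direction to be called in. Without the trend PER1 and FOS were at 0.46 and 0.18 and lost their call.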

How the data were processed

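In all, 6 deposited tables were used, 1 per library, grouped by the titles in the labels. Their values are TPM per gene, computed by the authors; per the submitters' processing notes, the build was hg38 and the tools included HISAT2, RSEM and fastp, without settings. Neither the selection of the listed genes nor the use of strand in counting was given in the sources used here. Because TPM are scaled to a library total and these genes are a small part of it, depth cannot be recovered and count tests were not run.

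The test was limma 3.58.1 (R 4.3.3, intensity trend, no covariate) on log2(TPM + 1), for the 1651 genes with at least 1 TPM in at least 3 of 6 libraries; 477 were left out. P-values are two-sided, adjusted by the Benjamini-Hochberg method over all tested genes, with a threshold of 0.05. The fit was tested on simulated data. The members and gene lists were chosen with earlier results of these data known. Genes named are all tested members of the receptor, ligand, subunit and RGS classes, the 12 other members with the largest change and the 8 most abundant untested members; the rest were named after their values were seen. In all, 2 of the 55 members are counted in the totals but not reported here. Of the pathway list the 12 tested genes with the largest change could be named. GC content, positions, overlaps and shared 31-base words come from GENCODE release 29 (GRCh38), in which all 55 genes matched. The GC trend was a natural spline with 3 degrees of freedom per library, fitted to 1626 genes. Promoters come from RefSeq (GRCh38.p14), with windows for 45 of the 55 genes. Python 3.11.15, pandas 2.3.3, numpy 2.4.6, scipy 1.17.1 and matplotlib 3.10.9 handled the tables. Same-numbered libraries did not deviate together.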

Additional observations from a re-analysis of the deposited data

How the results depend on the processing

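The 23 members called higher and 15 called lower became 37 and 17 with no filter on low values. Of all 2128 genes 1128 (53.0%) were then called higher and 915 lower. With a filter of 5 TPM, where fewer genes are tested, the members called became 13 and 7, and the share over all genes was not computed. Without the GC trend they became 13 and 8, against 31.5% and 31.1% of all tested genes. The numbers of receptors called higher and lower (5 and 7) became 16 and 7, 3 and 4, and 3 and 5 under the same settings. These are to be read against the same shares over all genes, of which there is none for the filter of 5 TPM. Without the GC trend the sign turned for PALM (-0.0331), ARHGEF1 (-0.0551), ADM2 (-0.32), CHRM4 (-0.12), ARHGEF4 (-0.125), DNAJC25-GNG10 (0.0759), PLEKHG2 (-0.32) and RIC8B (0.38); the cause was not tested. Median centring, which adds 0.15 to every log2 fold change, pseudocounts of 0.1 and 0.5, no intensity trend, a robust prior and a replicate block turned no member and, except for RIC8B, cost no call; quantile normalization cost those of RGS16 and PLEKHG2. With a pseudocount of 0.1 the median log2 fold change was 1.13 over the members and -0.99 over the receptors, against -0.67 over all tested genes. A broader reading of the annotation, chosen after seeing the data, gave 62 members, with 27 higher and 17 lower. The same fit called 47.8% of all tested genes higher and 50.6% lower. Leaving out each library in turn gave 23 members higher throughout and 14 to 15 lower, with RIC8B the sole call lost, and GPER1 between -1.93 and -1.78. Replicate numbers are shared between the groups, but the deviations of same-numbered libraries correlated at 0.03, -0.09 and 0.01. No shared deviation was seen, which cannot tell whether same-numbered libraries were prepared together. With the replicate block 23 members were higher and 14 lower. Without read depth no detection limit can be given for the members under 1 TPM.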
